A study of Mus musculus with 18 samples.

Results

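Outgrowths of embryoid bodies at day 21 of differentiation were compared with embryoid bodies at day 7 in mouse embryonic stem cells with both copies of Pax7 intact (Pax7+/+). The comparison uses 6 of the 18 arrays of the series, 3 per day, taken by genotype and day from the sample titles. The cells were F1 hybrids of the C57Bl6N and 129Sv strains. Embryoid bodies and outgrowths both grew without leukaemia inhibitory factor (LIF) and with RA and ITS (retinoic acid and insulin, transferrin and selenium, as these abbreviations are usually read), so the medium is shared by both days. The other arrays held Pax7+/+ cells at day 0, undifferentiated and with LIF, and cells labelled Pax7-/- at days 0, 7 and 21, again 3 per group; how Pax7 was altered is not given in the sources used here. The samples carry biological replicate numbers, but whether these were separate differentiations, lines or clones is not stated either. The p-values below therefore measure the spread between these samples only.

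An embryoid body is a floating aggregate in which stem cells leave the pluripotent state and form an outer layer of primitive endoderm around an epiblast-like core. When such aggregates attach to a culture surface, cells migrate out and form a flat outgrowth in which mesenchymal, muscle, epithelial and neural cells can appear side by side. Pluripotency in the mouse rests on transcription factors such as Nanog and Sox2, and a small share of stem cells passes through a state resembling the 2-cell embryo, marked by Zscan4. Retinoic acid acts through nuclear receptors that bind DNA as pairs and switches on, among others, its own degrading enzyme Cyp26a1 and the Hox genes. The samples were whole cultures, so fewer cells of a type and less RNA per cell cannot be told apart.

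All values are log2 intensities of 1 probe set per gene, and 22180 genes were tested. Arrays fell into a narrow set of 10, with a standard deviation over probe sets of 1.37 to 1.45, and a wide set of 8, with 1.79 to 1.85. Each fit therefore carried the array set as a term. Of the Pax7+/+ arrays compared here, replicate 1 of day 7 and replicates 1 and 3 of day 21 were narrow, and the other 3 were wide. Array values below are always given in the order of replicates 1, 2 and 3. The probe set for Pax7 read 6.35, 4.68 and 5.09 at day 7 and 6.19, 5.53 and 5.61 at day 21, a difference of 0.04 ± 0.24 log2 (SE, adjusted p = 0.959) whose sign differed between the sets (-0.46 narrow, 0.64 wide). Array medians lay between 4.55 and 4.97 log2, and values near or below that level say little about whether a gene was expressed. No detection call was used here, and levels are not compared between genes.

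From day 7 to day 21, 304 genes rose and 993 fell in Pax7+/+ cells (limma with Benjamini-Hochberg adjustment, adjusted p under 0.05). These are 1.37% and 4.48% of the 22180 genes tested, or 5.85% in either direction. At least 2-fold, 94 rose (0.424%) and 198 fell (0.893%). Counts for gene lists below stand against these shares of all genes. Of all 22180 differences 11755 were above 0 and 10425 below. The median change was 0.72 log2 among the rises and -0.71 log2 among the falls, against 0.01 over all genes. On narrow arrays alone, where 2 day 21 arrays stand against 1 of day 7, these medians were 0.55 and -0.68, and on wide arrays, where 1 stands against 2, they were 0.93 and -0.68. All 304 rises and 992 of the 993 falls had the same sign in both sets, as had 62.1% of all genes. The calls come from a fit to both sets together, which favours genes of equal sign, so this is not a separate test. The counts rest on the array set term: without it 2 genes rose and 3 fell. They also rest on single arrays, since 139 genes rose and 534 fell without day 7 replicate 2, 129 and 550 without day 7 replicate 3, and 131 rose without day 21 replicate 2.

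Ranked by size, the rises were led by the stomach genes Gkn2 and Gkn1, the secreted lectin gene Chil1, the matrix genes Dcn, Postn and Thbs1 and the growth factor binding gene Igfbp5. The falls were led by Zscan4e and Zscan4b, by the pluripotency genes Nanog, Dppa2 and Tdgf1, by Pramel19 and by Nr0b1, which encodes a nuclear receptor of stem cells. The multicopy zinc finger genes Zfp640 (-2.90 ± 0.54) and Zfp981 (-2.69 ± 0.46) were also among the 15 largest falls. Predicted genes without a proper name were passed over in this ranking, among them 1 with a larger fall than Zscan4e. Of the 15 leading rises 11, and of the 15 leading falls 13, kept their call in each of the 6 fits that left out 1 of the arrays compared. Of the rises, Mucl3, a mucin-like gene (2.75 ± 0.57), lost it without day 21 replicate 2 (adjusted p = 0.0713, difference 1.95 log2). Trpv3, a cation channel of skin (2.19 ± 0.59), lost it without day 7 replicates 2 or 3 or day 21 replicates 1 or 2 (adjusted p = 0.055 to 0.296, the difference being 1.36 log2 without day 21 replicate 2). Serpina3n, Saa3, H2ac1 and Zscan4c are treated with their groups.

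**Figure D1:**
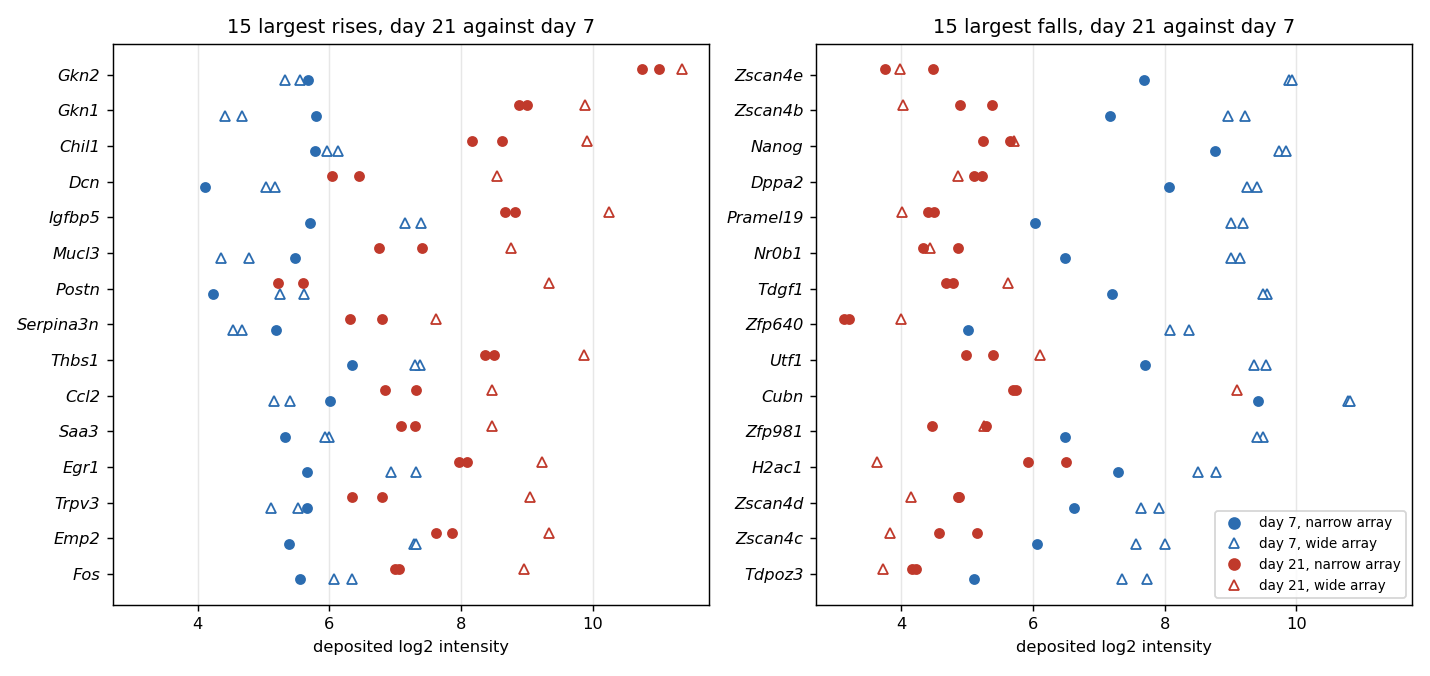
Deposited log2 intensity (x axis) of the 15 leading rises (left) and falls (right) in each Pax7+/+ array, with day 7 in blue, day 21 in red, narrow arrays as filled circles and wide arrays as open triangles. Within each set every day 21 array lies beyond every day 7 array for all 30 genes, because the selection required it. Of all 22180 genes, 19.4% lay so in the higher and 18.8% in the lower direction. The wide day 21 array of Postn and of Cubn stands far above both narrow day 21 arrays.

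**Figure D2:**
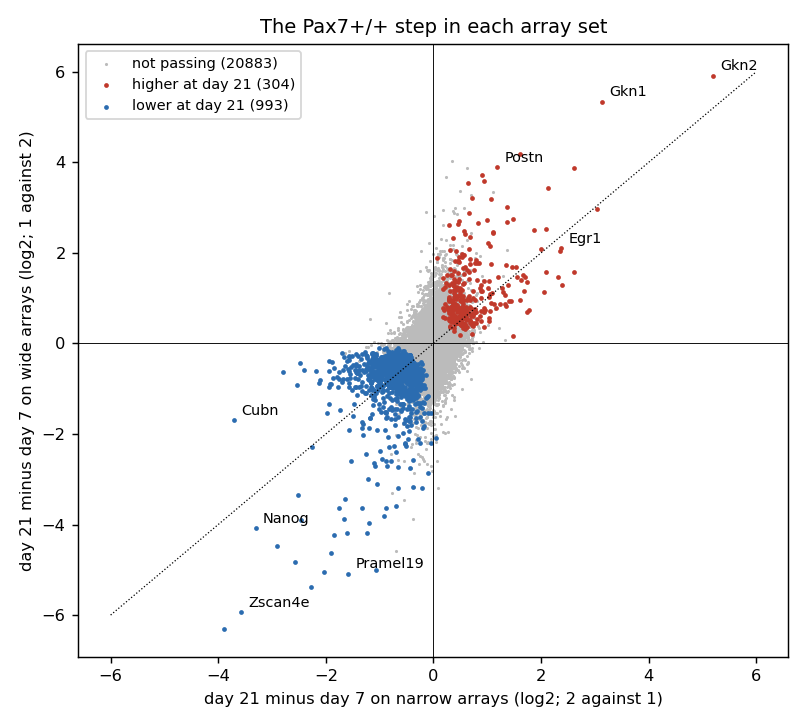
Each point is 1 gene, with its day 21 minus day 7 difference on narrow arrays (x axis, log2) and on wide arrays (y axis, log2). The 304 rises are red, the 993 falls are blue, the other genes are grey, and the dotted line marks equal differences. Gkn2 lies near that line at 5.20 and 5.92, whereas Postn reads 1.18 on narrow and 3.90 on wide arrays.

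Genes of the stomach lining showed the largest rise. Gkn2 and Gkn1, which lie on chromosome 6 and encode gastrokines, small proteins that gastric surface cells secrete, rose 47-fold and 18.1-fold. Gkn2 read 5.67, 5.55 and 5.32 at day 7 and 11, 11.35 and 10.75 at day 21. All 3 day 21 arrays were therefore more than 5 log2 units above every day 7 array, whatever the set, and the fitted difference was 5.55 ± 0.41 (SE, n = 3 per day, adjusted p = 2.4e-06). Gkn1 read 5.80, 4.67 and 4.41 at day 7 and 8.997, 9.88 and 8.88 at day 21, again without overlap, and differed by 4.18 ± 0.42, with 3.14 on narrow and 5.34 on wide arrays (adjusted p = 3.58e-05). At day 0 Gkn2 had read 5.59, 5.46 and 4.15, and day 7 minus day 0 was 0.41 ± 0.41 (adjusted p = 0.704).

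Few other genes of gut and stomach passed, where 1.37% of all genes rose. Of 21 measured members 3 rose and 0 fell, the third riser being Tff3, a trefoil peptide of mucous surfaces, at 0.72 ± 0.20 (adjusted p = 0.0448). Tff3 lost its call without day 7 replicates 2 or 3 or day 21 replicates 2 or 3 (adjusted p = 0.103 to 0.242). The list's median was 0.28 log2, with 20 of 21 members above 0, where all genes had a median of 0.01. The endodermal factors Foxa1, Foxa2, Foxa3 and Cdx2 and the stomach mucin Muc5ac were among the 18 members that did not pass. Outside the list, and chosen after their values were seen, the pepsinogen gene Pga5 and the gel-forming mucin gene Muc5b also rose. Pga5, on chromosome 19, read 6.37, 8.70 and 8.56 at day 7 and 9.04, 10.19 and 8.90 at day 21 and differed by 1.92 ± 0.40 (adjusted p = 0.00855), after a rise of 2.51 ± 0.40 from day 0 to day 7 (adjusted p = 0.0011). It lost the call without day 7 replicate 1 (adjusted p = 0.0621). Muc5b differed by 2.04 ± 0.54 (adjusted p = 0.0365), with 0.95 on narrow and 3.59 on wide arrays, and lost its call without day 7 replicates 2 or 3 or day 21 replicate 2 (adjusted p = 0.103 to 0.286, the difference being 1.09 log2 without day 21 replicate 2).

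Fibroblast and fibrillar matrix genes rose in 9 of 25 cases and fell in 0, with 16 not passing. Of all genes 1.37% rose. The list's median was 1.00 log2, made up of 0.37 on narrow and 1.36 on wide arrays. The 9 were Dcn, Postn, Thbs1, Col1a2, Col1a1, Col5a1, Pdgfra, Col6a1 and Col12a1, and 6 of them kept the call in all 6 fits with 1 array left out. Dcn encodes decorin, a small proteoglycan that decorates collagen fibrils. It read 4.10, 5.17 and 5.04 at day 7 and 6.03, 8.55 and 6.45 at day 21 and differed by 2.84 ± 0.31, with 2.14 on narrow and 3.44 on wide arrays (7.16-fold, adjusted p = 6.55e-05). Thbs1, encoding the matricellular protein thrombospondin 1, read 6.34, 7.38 and 7.31 at day 7 and 8.50, 9.87 and 8.37 at day 21 and differed by 2.38 ± 0.18 (adjusted p = 3.67e-06), nearly the same in both sets (2.10 and 2.52).

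The chains of type I collagen and periostin differed far more between the array sets. Replicate 2 is the only wide day 21 array, so the set and that sample cannot be told apart. Col1a2 read 6.57, 5.63 and 5.35 at day 7 and 6.96, 9.04 and 7.47 at day 21, so that the wide day 21 array stood out with a difference of 3.55 against 0.64 on narrow arrays, and the fitted value was 2.11 ± 0.41 (adjusted p = 0.00548). Col1a1 differed by 1.84 ± 0.33, or 3.57-fold (0.997 narrow, 2.72 wide, adjusted p = 0.00373). Postn read 4.23, 5.25 and 5.62 at day 7 and 5.22, 9.33 and 5.5997 at day 21, and its narrow day 21 values did not exceed the higher wide day 7 value. It differed by 2.45 ± 0.44 (adjusted p = 0.00373). Among all 44 collagen genes measured, a group formed after the values were seen, 6 rose and 0 fell. The rises are 13.6%, against 1.37% of all genes.

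A few regulators of the matrix rose too. Of 16 proteases and inhibitors 3 rose and 0 fell. These were the metalloproteinase inhibitors Timp2 (1.49 ± 0.21) and Timp3 (1.05 ± 0.20) and the urokinase receptor gene Plaur (1.15 ± 0.14), with adjusted p = 0.0005, 0.00509 and 0.000229. All 3 kept the call in the 6 fits with 1 array left out. None of the 7 matrix metalloproteinase genes on the list passed. The matricellular genes Ccn1 and Ccn2, which respond to cell stretch and to transforming growth factor beta, rose by 1.89 ± 0.20 and 1.63 ± 0.12 (adjusted p = 4.82e-05 and 2.4e-06). The growth factor receptor gene Tgfbr2 rose by 1.66 ± 0.32 (adjusted p = 0.00494). Ccn2 and Tgfbr2 were chosen after their values were seen, and none of the 20 members of the list for bone morphogenetic protein and transforming growth factor beta signalling passed.

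Markers of other stromal and blood-derived cells were read on the same arrays. Of 17 macrophage genes 1 rose, the chemokine receptor gene Cx3cr1 (0.70 ± 0.20, adjusted p = 0.0486), and the list's per-array median was 4.94, 4.18 and 4.39 at day 7 and 5.39, 5.58 and 5.08 at day 21. All 17 differences were above 0. Over all 22180 genes, 11755 were above 0 and 1.37% rose. Cx3cr1 lost the call without day 7 replicates 1, 2 or 3 or day 21 replicates 1 or 2 (adjusted p = 0.0626 to 0.358, the difference being 0.41 log2 without day 21 replicate 2). Endothelium, embryonic blood and adipocyte genes passed in 0 of 16, 0 of 11 and 0 of 10 cases. The part of such cells in the matrix result was not tested.

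Smooth muscle genes rose in 4 of 16 cases and fell in 0, where 1.37% of all genes rose. Acta2, the actin of smooth muscle and myofibroblasts, read 8.34, 8.03 and 7.79 at day 7 and 9.02, 10.25 and 9.03 at day 21 and differed by 1.57 ± 0.24, or 2.96-fold, with 0.68 on narrow and 2.34 on wide arrays (adjusted p = 0.000942). Myl9, a myosin light chain, read 6.29, 6.77 and 6.54 at day 7 and 7.06, 8.50 and 7.09 at day 21, with every day 21 array above every day 7 array, and differed by 1.28 ± 0.22 (adjusted p = 0.00231). Tpm1 (0.86 ± 0.14) and Actg2 (1.01 ± 0.25) followed with adjusted p = 0.00143 and 0.0269. Actg2 lost the call without day 7 replicates 2 or 3 or day 21 replicates 1 or 2 (adjusted p = 0.0565 to 0.142). Of the other contractile genes, Myh11, Cnn1, Smtn and Des did not pass (0.32, 0.49, -0.04 and -0.25 log2).

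Contractile genes are often driven by serum response factor, which binds the CArG box, the letters CC and GG around 6 letters that are each A or T. The box was looked for on both strands of the RefSeq promoter windows (GRCm38.p6), which hold 250 bases before to 50 after a gene's start. It was found in 1.63% of all 32851 windows and for 1.81% of genes. It was found for 2 of the 12 smooth muscle genes, 4 of the 22 heart muscle genes and 1 of the 14 skeletal muscle genes that have a window. Of the 3 risers with a window, Myl9 was the 1 with a match, and the 250 bases before its start are shown with the match in capitals, 5′ to 3′, at chr2:156775214-156775463 on the + strand.
Myl9: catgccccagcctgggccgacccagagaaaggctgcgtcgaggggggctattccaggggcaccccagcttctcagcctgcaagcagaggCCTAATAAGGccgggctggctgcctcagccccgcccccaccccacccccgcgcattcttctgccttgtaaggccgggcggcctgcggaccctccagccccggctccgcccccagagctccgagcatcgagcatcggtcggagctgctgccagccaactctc
The match begins at -161 from the start. It is a match of letters, and binding was not measured in this series.

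Heart muscle genes did not pass in any of 24 cases, although 21 of the 24 were higher at day 21 and the list's median was 0.56 log2. That median was 0.13 on narrow and 1.09 on wide arrays. Myl7, the atrial myosin light chain, read 4.40, 4.52 and 5.04 at day 7 and 5.11, 8.65 and 4.93 at day 21, so that day 21 replicate 2 stood alone. Actc1, the cardiac actin, read 4.69, 4.02 and 4.37 at day 7 and 5.40, 7.47 and 5.37 at day 21 in the same pattern. Their fitted differences were 1.97 ± 0.66 and 1.78 ± 0.56 (adjusted p = 0.0988 and 0.0777). Leaving out day 21 replicate 1 gave 1 passing heart gene. The median on wide arrays rests on day 21 replicate 2 alone. Skeletal muscle genes passed in 0 of 20 cases with a median of 0.10 log2, Acta1 being nearest at 0.89 ± 0.34 (adjusted p = 0.162).

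Immediate early genes, which cells switch on within minutes of a growth factor or stress signal, rose in 13 of 15 cases and fell in 0. Their median was 1.25 log2 (0.58 narrow, 1.68 wide), and 11 of the 13 kept the call in all 6 fits with 1 array left out. The share of rises over all genes was 1.37%. Egr1, a zinc finger transcription factor, read 5.66, 6.93 and 7.32 at day 7 and 7.97, 9.22 and 8.10 at day 21 and differed by 2.25 ± 0.13, or 4.75-fold (adjusted p = 2.66e-07). Fos and Fosb, which encode partners in the AP-1 transcription factor, rose by 2.12 ± 0.29 and 2.09 ± 0.25 (adjusted p = 0.000448 and 0.000139). Their partner gene Jun rose by 1.498 ± 0.20 and the stress-induced factor gene Atf3 by 1.55 ± 0.14 (adjusted p = 0.000367 and 1.46e-05). Myc and Dusp1 were the 2 members that did not pass, at 0.05 and 0.57 log2. The antiproliferative genes Btg2 (1.68 ± 0.17) and Btg1 (1.09 ± 0.13), themselves early response genes, rose as well, and the nuclear long noncoding RNA Neat1 rose by 1.57 ± 0.15 (adjusted p = 3.4e-05, 0.000139 and 2.29e-05). Btg1 and Btg2 were the only rises among 17 measured cell cycle brakes and p53 targets. Ccng1 and Gadd45b fell, though neither kept its call in all 6 fits with 1 array left out. The list's median was -0.11 log2, with 11 members below 0.

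Inflammation and acute phase genes rose in 5 of 14 cases and fell in 0, where 1.37% of all genes rose. Chil1, which encodes a chitinase-like lectin, read 5.78, 5.97 and 6.13 at day 7 and 8.62, 9.92 and 8.17 at day 21 and differed by 2.96 ± 0.48, or 7.8-fold (adjusted p = 0.00165). Ccl2, the monocyte attractant, read 6.01, 5.40 and 5.16 at day 7 and 6.84, 8.48 and 7.32 at day 21 and differed by 2.32 ± 0.45, with 1.07 on narrow and 3.19 on wide arrays (adjusted p = 0.00532). Saa3, an acute phase apolipoprotein, rose by 2.26 ± 0.51, the prostaglandin synthase gene Ptgs2 by 1.27 ± 0.33, and the adhesion gene Vcam1 by 1.11 ± 0.31. Saa3 lost the call without day 7 replicates 2 or 3 or day 21 replicate 2 (adjusted p = 0.0546 to 0.0583), and Ptgs2 lost it without day 7 replicates 2 or 3 or day 21 replicates 2 or 3 (adjusted p = 0.0912 to 0.238). Only 2 of the 5 rises, Chil1 and Ccl2, kept the call in all 6 fits with 1 array left out, so Vcam1 did not. Without day 7 replicate 2, day 7 replicate 3 or day 21 replicate 2, only 2 of the list's genes rose, and without day 21 replicate 3 it was 3. The serpin gene Serpina3n, off the list, rose by 2.38 ± 0.59 (adjusted p = 0.0259) and lost the call without day 7 replicates 2 or 3 or day 21 replicates 2 or 3 (adjusted p = 0.0665 to 0.111). Of 14 genes of interferon response and antigen presentation 1 rose, B2m, the light chain of class I molecules, at 1.45 ± 0.28 (adjusted p = 0.00505).

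Several of these genes were not low in the series before day 7. In undifferentiated cells Ccl2 had read 10.16, 9.54 and 10.57, Thbs1 10.19, 9.997 and 10.998 and Acta2 9.94, 9.59 and 10.26, in each case above the day 7 arrays. From day 0 to day 7, Ccl2 changed by -4.87 log2, Ptgs2 by -4.52, Thbs1 by -3.86 and Dcn by -3.05 (adjusted p = 6.57e-06, 9.79e-07, 4.59e-09 and 1.58e-05). In that step 7 of 25 fibroblast and matrix genes, 7 of 14 inflammation genes and 7 of 15 immediate early genes fell, where 3.14% of all genes did. Both steps share the day 7 arrays, so a low reading there enters both. Gkn1 and Chil1, by contrast, did not differ detectably between day 0 and day 7, at -0.33 ± 0.42 and 1.03 ± 0.48 (adjusted p = 0.791 and 0.272).

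Genes of naive pluripotency fell in 10 of 24 cases and 1 rose, with 13 not passing. Of all genes 4.48% fell and 1.37% rose. The list's median was -0.92 log2 (-0.46 narrow, -1.61 wide), and 23 of its 24 members were below 0. Nanog, which holds stem cells in the naive state, read 8.76, 9.74 and 9.84 at day 7 and 5.24, 5.71 and 5.66 at day 21. It was therefore still high in every embryoid body array and low in every outgrowth array, and fell by 3.52 ± 0.33 log2, or 11.5-fold (adjusted p = 2.38e-05). Tdgf1, a Nodal coreceptor, read 7.19, 9.55 and 9.499 at day 7 and 4.78, 5.62 and 4.68 at day 21 and fell by 3.16 ± 0.31 log2 (adjusted p = 3.18e-05). Utf1, a chromatin factor of stem cells, fell 7.33-fold, and Tbx3 and Sox2 fell 2.57-fold and 2.09-fold (adjusted p = 3.31e-05, 0.00411 and 0.00573).

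Dppa2 and Dppa4 work as a pair that opens developmental chromatin in stem cells. Dppa2 read 8.07, 9.25 and 9.40 at day 7 and 5.22, 4.86 and 5.11 at day 21, without overlap, and fell 11.1-fold (adjusted p = 3.18e-05). Dppa4 read 6.03, 7.19 and 7.31 at day 7 and 5.65, 4.51 and 5.12 at day 21 and fell 2.84-fold (adjusted p = 0.0361), but lost its call without day 7 replicates 2 or 3 or day 21 replicates 2 or 3 (adjusted p = 0.0511 to 0.272, the difference being -0.76 log2 without day 21 replicate 2). The exception on the list was Klf4, a factor of stem cells and of differentiating epithelia alike. It read 6.44, 8.23 and 8.31 at day 7 and 7.58, 9.35 and 7.95 at day 21 and rose by 1.28 ± 0.16 (adjusted p = 0.000261). The probe set for Pou5f1, the core pluripotency factor, read 6.92, 6.71 and 6.50 at day 0 and 6.07, 6.37 and 6.17 at day 7. At day 21 it read 6.17, 5.36 and 6.03 (adjusted p = 0.274 against day 7).

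Nr0b1 read 6.49, 9.14 and 8.999 at day 7 and 4.86, 4.43 and 4.33 at day 21 and fell 9.52-fold, with -1.90 on narrow and -4.64 on wide arrays (adjusted p = 0.000482). Its day 0 values of 10.59, 10.43 and 11.12 were higher than at day 7 on both sets, with a change of -2.92 ± 0.45 up to day 7 (adjusted p = 0.000906). Of 7 Dnmt and Tet genes, which encode enzymes that methylate cytosine or oxidise the methyl group and a cofactor, 4 fell and 0 rose, in a group formed after the values were seen. The share of falls over all genes was 4.48%. Tet1 fell by 1.74 ± 0.16 log2. Dnmt3b and Dnmt3l, a methyltransferase and its cofactor, changed by -0.76 ± 0.20 and -1.31 ± 0.29 log2 (adjusted p = 1.46e-05, 0.0363 and 0.0122). Tet2 changed by -1.32 ± 0.17 (adjusted p = 0.000262), and Dnmt1, Dnmt3a and Tet3 did not pass (-0.36, -0.09 and 0.35 log2). Dnmt3b was the 1 member of 11 primed epiblast genes that passed, and it lost its call without day 7 replicates 2 or 3 or day 21 replicate 2 (adjusted p = 0.113 to 0.281, the difference being -0.39 log2 without day 21 replicate 2). Dnmt3l lost it without day 7 replicate 2 or day 21 replicate 2 (adjusted p = 0.0629 to 0.0864, the difference being -0.79 log2 without day 21 replicate 2).

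Of 5 Zscan4 genes, which mark the state resembling the 2-cell embryo, 4 were highest at day 7 and fell into the outgrowths. Falls made up 4.48% of all genes. Zscan4e, on chromosome 7 and a pseudogene in the reference annotation, read 7.68, 9.89 and 9.93 at day 7 and 4.48, 3.97 and 3.74 at day 21, after 4.47, 4.29 and 4.65 at day 0. It rose by 4.22 ± 0.67 log2 into the embryoid body and fell by 4.62 ± 0.67 log2 after it, with -3.57 on narrow and -5.93 on wide arrays (adjusted p = 0.00118 and 0.000699). Zscan4b, Zscan4d and Zscan4c changed by -3.54, -2.60 and -2.59 log2 (adjusted p = 0.00364, 0.00147 and 0.0125). Zscan4c lost its call without day 7 replicates 2 or 3 or day 21 replicate 2 (adjusted p = 0.053 to 0.107, the difference being -1.95 log2 without day 21 replicate 2). Zscan4a, the last of the 5 measured, did not pass (-0.47 ± 0.36, adjusted p = 0.548). These genes are near-identical copies whose probes can read each other, so which copy was read is uncertain.

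Some members of other multicopy families also fell. Pramel19, on chromosome 4, read 6.03, 9.001 and 9.19 at day 7 and 4.41, 4.01 and 4.50 at day 21 after 4.27, 4.28 and 4.25 at day 0, and fell 10.2-fold (adjusted p = 0.00548). Of 29 Pramel genes 5 fell and 0 rose, of 6 Tdpoz genes 1 fell and 0 rose, and of 5 Usp17l genes 2 fell and 0 rose. Over all genes 4.48% fell and 1.37% rose. Usp17le, of a family of deubiquitinases, changed by -2.33 log2, Tdpoz3 by -2.498 log2 and the zinc finger gene Zfp352 by -1.30 log2 (adjusted p = 0.0155, 0.00416 and 0.0182). The germ cell gene Dazl fell by 1.80 log2 (adjusted p = 0.049). Pramel19, Usp17le and Tdpoz3 had risen from day 0 to day 7, whereas Zfp352 and Dazl had not passed there (0.91 ± 0.30 and 1.33 ± 0.51). For these 5 genes day 7 replicate 1, the narrow array, read lower than replicates 2 and 3, and narrow and wide differences were far apart (-1.58 and -5.08 for Pramel19). Usp17le lost its call without day 7 replicates 2 or 3 or day 21 replicate 2 (adjusted p = 0.0691 to 0.126), Zfp352 without day 7 replicate 3 or day 21 replicate 2 (adjusted p = 0.0905 to 0.155, the difference being -0.80 log2 without day 21 replicate 2) and Dazl without day 7 replicates 2 or 3 or day 21 replicates 2 or 3 (adjusted p = 0.0731 to 0.361, the difference being -1.02 log2 without day 21 replicate 2). Usp17le, Zfp352 and Dazl were chosen after their values were seen, and the families, Zscan4 included, were formed then as well.

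**Figure D3:**
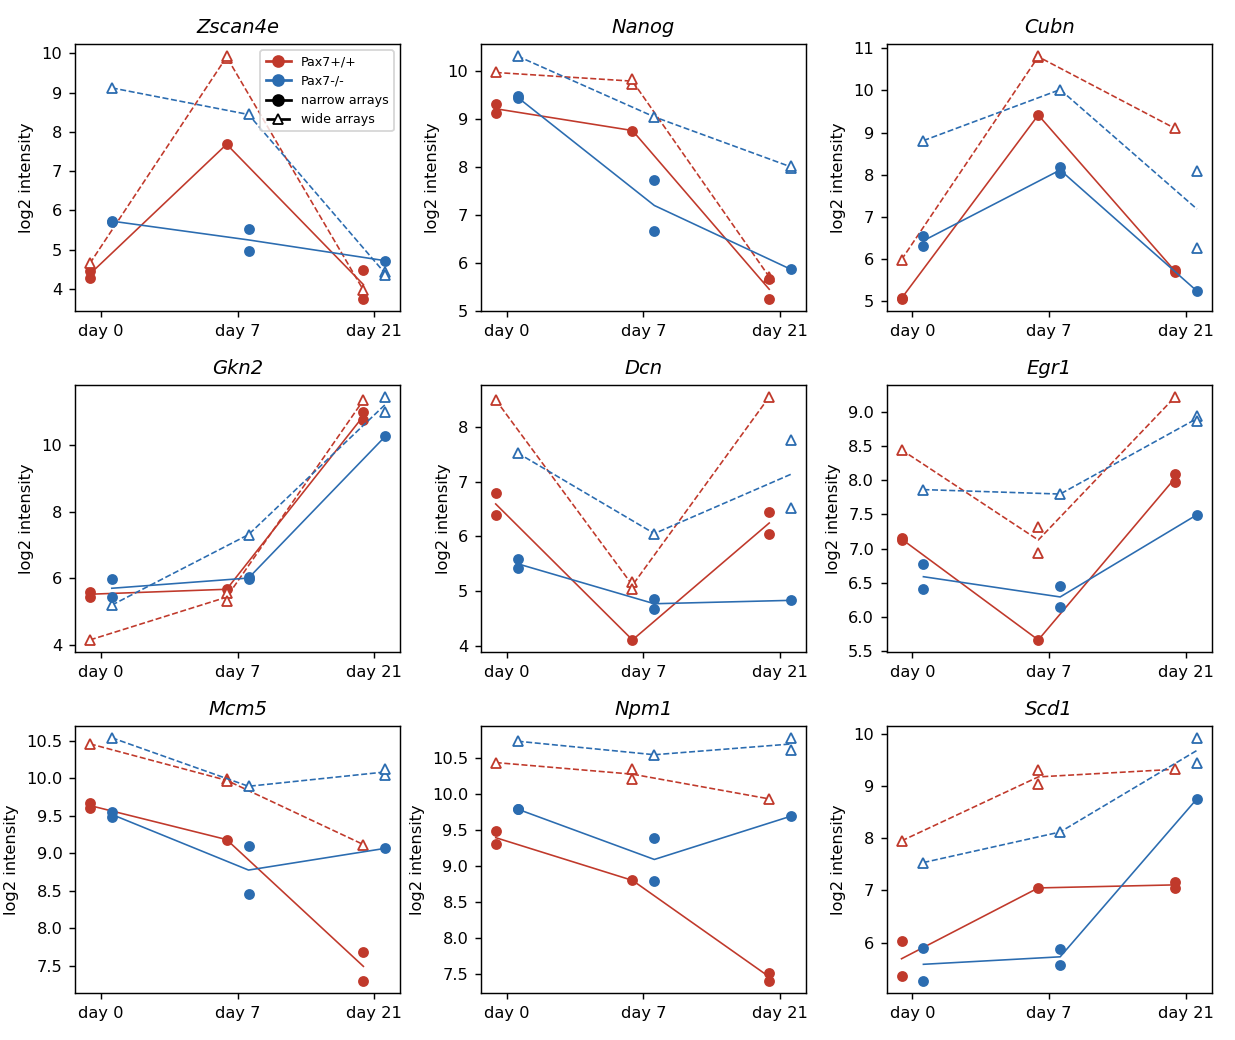
Deposited log2 intensity (y axis) of 9 genes at days 0, 7 and 21 (x axis) in Pax7+/+ (red) and Pax7-/- (blue) arrays; circles and solid lines give narrow arrays, triangles and dashed lines give wide arrays, and lines join the means of a set. Zscan4e and Cubn peak at day 7 in Pax7+/+ cells, Gkn2 rises after day 7 in both genotypes, and Mcm5 falls in Pax7+/+ cells on both sets.

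The visceral endoderm is the absorptive outer layer of the embryoid body. Of 23 visceral endoderm and fetal liver genes 2 fell, 0 rose and 16 lay above 0, with a median of 0.19 log2 (0.08 narrow, 0.65 wide). The 2 that fell encode uptake receptors. Cubn, which encodes the receptor cubilin, read 9.42, 10.79 and 10.81 at day 7 and 5.69, 9.10 and 5.74 at day 21, with day 21 replicate 2 much less reduced than the others. It had risen by 4.30 ± 0.43 into the embryoid body and fell by 2.83 ± 0.43 log2 after it, with -3.70 on narrow and -1.70 on wide arrays (adjusted p = 0.00105). Lrp2, its partner megalin, fell by 1.07 ± 0.18 log2 (adjusted p = 0.00246). The serum protein genes Afp and Rbp4 did not pass and differed by 1.16 ± 0.63 and 1.31 ± 0.51 (adjusted p = 0.35 and 0.166), Afp reading 6.61, 7.19 and 8.24 at day 7 and 7.43, 10.15 and 7.18 at day 21. The lysosomal protease gene Lgmn fell by 1.18 ± 0.22 log2 (adjusted p = 0.00428), or by 0.75 log2 without day 7 replicate 1. Of 14 lysosome genes 3 fell and 2 rose. The other falls, the protease genes Ctsb (-0.70 ± 0.19) and Ctsz (-0.62 ± 0.16), kept the call only without day 21 replicate 2, so that 1 lysosome gene fell in each of the other 5 fits with 1 array left out. Without day 7 replicates 1 or 3 or day 21 replicate 3, 1 lysosome gene rose.

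Parietal endoderm and basement membrane genes split, with 3 of 15 higher and 2 lower. Nid1, which encodes the basement membrane linker nidogen 1, read 9.04, 10.59 and 10.50 at day 7 and 10.79, 11.24 and 10.77 at day 21 and rose by 1.54 ± 0.36 (adjusted p = 0.0168). Lamc1, a laminin chain, and Serpinh1, a collagen chaperone, rose by 0.69 ± 0.18 and 0.50 ± 0.14 (adjusted p = 0.0339 and 0.0441). Nid2 and Hspg2, a linker and a proteoglycan of the same membrane, fell, with -0.50 ± 0.12 and -0.57 ± 0.10 log2 (adjusted p = 0.0211 and 0.00338). Hspg2 kept the call in all 6 fits with 1 array left out, whereas Nid2 kept it only without day 21 replicate 2. None of the 3 rises kept its call in all 6 fits with 1 array left out: 0 genes rose without day 7 replicate 2, day 7 replicate 3, day 21 replicate 1 or day 21 replicate 3, and 5 did without day 21 replicate 2. In the preceding step from day 0 to day 7, 13 of these 15 genes had risen, where 2.54% of all genes did.

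Of 17 retinoic acid pathway genes 2 fell and 0 rose, and both days shared the medium with RA. Cyp26a1, the enzyme that degrades retinoic acid, read 6.203, 7.89 and 8.10 at day 7 and 5.24, 5.62 and 5.16 at day 21, against day 0 values of 4.90, 5.07 and 4.16. It fell by 1.89 ± 0.38 log2, or 3.71-fold, with -1.002 on narrow and -2.37 on wide arrays (adjusted p = 0.00743), after a rise of 2.52 ± 0.38 up to day 7. Stra8, a germ cell gene named for its induction by retinoic acid, fell by 1.16 ± 0.32 log2 (adjusted p = 0.0451), with 0.05 on narrow and -2.08 on wide arrays. It lost the call without day 7 replicates 2 or 3 or day 21 replicates 2 or 3 (adjusted p = 0.0781 to 0.277), and was -1.86 log2 without day 7 replicate 1. The receptor gene Rarb, itself a target, did not pass at -0.74 log2. Without day 7 replicate 1 the list's falls numbered 5, and without day 7 replicate 2, day 7 replicate 3, day 21 replicate 2 or day 21 replicate 3 there was 1.

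Receptors of retinoic acid bind direct repeats of a 6-letter half-site 5 letters apart, searched here as NGNTCA followed, after any 5 letters, by NGNTCA again, on both strands. The repeat stands in 0.861% of the 32851 promoter windows and was found for 0.988% of genes. It was found in 2 of the 13 pathway genes with a window, Rarb and Cyp26a1, of which Cyp26a1 passed the test. The 250 bases before its start, at chr19:37697558-37697807 on the + strand, are shown with the match in capitals.
Cyp26a1: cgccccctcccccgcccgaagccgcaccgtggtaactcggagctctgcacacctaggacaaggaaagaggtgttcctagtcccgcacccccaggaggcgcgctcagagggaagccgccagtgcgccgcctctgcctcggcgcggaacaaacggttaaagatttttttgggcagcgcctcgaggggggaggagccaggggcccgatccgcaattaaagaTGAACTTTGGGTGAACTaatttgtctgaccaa
The match begins at -32 from the start. In the 20 Hox genes with a window the repeat was not found, which says only that these letters are not in those windows.

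Hox genes, which set position along the body axis, were lower in 31 of 36 cases, and 2 passed as falls. Of all genes 4.48% passed as falls, and 10425 of 22180 were lower. Hoxa5 read 4.92, 6.12 and 6.14 at day 7 and 4.46, 4.02 and 4.46 at day 21 and fell by 1.39 ± 0.35 log2, and Hoxa3 fell by 0.44 ± 0.12 log2 (adjusted p = 0.0276 and 0.0473). Hoxa5 lost the call without day 7 replicates 2 or 3 or day 21 replicate 2 (adjusted p = 0.116 to 0.168) and Hoxa3 without day 7 replicates 2 or 3 or day 21 replicates 1, 2 or 3 (adjusted p = 0.0849 to 0.204). The list's median of -0.31 log2 was -0.03 on narrow and -0.505 on wide arrays. The count rests on single arrays: 10 Hox genes fell without day 7 replicate 1, and 0 without day 7 replicate 2, day 7 replicate 3 or day 21 replicate 2.

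Many genes of cell division fell, where 4.48% of all genes did. Of 19 mitosis genes 15 fell and 0 rose, with a median of -0.73 log2 that was close in the sets (-0.60 and -0.75), and 12 of the 15 kept the call in all 6 fits with 1 array left out. Ccna2, the cyclin of S and G2 phase, read 8.33, 9.85 and 9.88 at day 7 and 6.43, 9.29 and 7.06 at day 21 and fell by 1.19 ± 0.22 log2 (adjusted p = 0.00385). The spindle checkpoint gene Mad2l1 changed by -1.14 log2, the mitotic kinase genes Plk1 and Bub1 by -1.10 and -0.97 log2, Cdk1 by -0.96 log2 and the topoisomerase gene Top2a by -0.80 log2. Mki67, the antigen of the usual proliferation stain, did not pass at -0.33 log2, nor did Birc5, Cenpa and Ttk.

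Of 19 DNA replication genes 7 fell and 0 rose, where 4.48% of all genes fell, and all 19 were below 0. Mcm5, a subunit of the replicative helicase, read 9.18, 9.98 and 9.96 at day 7 and 7.68, 9.11 and 7.30 at day 21 and fell by 1.32 ± 0.18 log2, with -1.69 on narrow and -0.86 on wide arrays (adjusted p = 0.000367). Rrm2, the limiting subunit of nucleotide reduction, fell by 1.14 ± 0.14 log2, and the helicase genes Mcm7 and Mcm4 changed by -0.99 and -0.82 log2 (adjusted p = 0.000199, 0.00338 and 0.0163). Pcna, the sliding clamp, fell by 0.67 ± 0.15 log2 (adjusted p = 0.0153). Mcm4 lost the call without day 7 replicates 2 or 3 or day 21 replicate 1 (adjusted p = 0.0544 to 0.062) and Pcna without day 7 replicates 1 or 3 or day 21 replicates 1 or 3 (adjusted p = 0.0508 to 0.0677). Without day 7 replicate 3, 4 of these genes fell. Clustered and linker histone genes, a group formed after the values were seen, fell in 7 of 29 cases and rose in 0. The falls are 24.1%, against 4.48% of all genes. H1f5 changed by -1.55 ± 0.17 log2 and H2bc12 by -1.79 ± 0.31 log2 (adjusted p = 7.45e-05 and 0.00293). H2ac1 changed by -2.62 ± 0.66, with -1.07 on narrow and -5 on wide arrays (adjusted p = 0.0274), and lost the call without day 7 replicates 2 or 3 or day 21 replicate 2 (adjusted p = 0.0637 to 0.104, the difference being -1.12 log2 without day 21 replicate 2). Probes of histone genes can read near-identical copies.

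Of 14 genes of the nucleolus and ribosome building 10 fell and 0 rose, with a median of -0.79 log2 (-0.70 narrow, -0.77 wide). Over all genes 4.48% fell. Nop2, which methylates ribosomal RNA, read 7.53, 9.01 and 8.83 at day 7 and 6.05, 7.89 and 5.99 at day 21 and fell by 1.29 ± 0.13 log2, or 2.45-fold (adjusted p = 3.4e-05). Nucleolin (Ncl), the telomerase and ribosomal RNA factor Dkc1 and nucleostemin (Gnl3) changed by -1.05, -0.91 and -0.87 log2 (adjusted p = 0.00407, 0.0104 and 0.00221), Dkc1 losing the call without day 21 replicate 2 (adjusted p = 0.0824). Nucleophosmin (Npm1) fell by 1.03 ± 0.25 log2 (adjusted p = 0.0243), but it lost the call without day 7 replicates 1, 2 or 3 or day 21 replicates 1 or 3 (adjusted p = 0.0586 to 0.0874), and its probe set with the highest spread differed by 0.014 log2. Terc, the RNA component of telomerase, read 9.47, 10.37 and 10.43 at day 7 and 7.34, 8.11 and 7.10 at day 21 and fell 4.84-fold, with -2.25 on narrow and -2.30 on wide arrays (adjusted p = 6.55e-05). Of 11 ribosomal protein genes 4 fell and 0 rose, with -0.90 ± 0.13 log2 for Rpl10a (adjusted p = 0.000619). Without day 7 replicate 2, day 7 replicate 3 or day 21 replicate 3, 2 of them fell. Of 80 small nucleolar RNA genes, a group formed after the values were seen, 7 fell and 1 rose. These are 8.75% and 1.25%, against 4.48% and 1.37% of all genes.

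Epithelial adhesion genes moved both ways. Cdh1, the E-cadherin of epithelia and of stem cells, read 8.05, 9.39 and 9.42 at day 7 and 6.79, 8.74 and 6.46 at day 21 and fell by 1.13 ± 0.20 log2, and the tight junction gene Cldn4 fell by 1.35 ± 0.16 log2 (adjusted p = 0.00271 and 0.000134). Ocln, another tight junction gene, rose by 0.78 ± 0.19 (adjusted p = 0.02) but lost the call without day 7 replicates 2 or 3 or day 21 replicate 2 (adjusted p = 0.0767 to 0.161, the difference being 0.45 log2 without day 21 replicate 2), and the other 13 of 16 genes on the list did not pass. Emp2, a membrane protein of epithelia, read 5.39, 7.28 and 7.31 at day 7 and 7.87, 9.34 and 7.61 at day 21 and rose by 2.18 ± 0.22 (adjusted p = 3.4e-05). Alpl, the alkaline phosphatase used to stain stem cell colonies and also a bone enzyme, read 7.19, 8.22 and 8.30 at day 7 and 6.08, 5.55 and 6.11 at day 21 and fell by 1.77 ± 0.29 log2, with -1.09 on narrow and -2.72 on wide arrays (adjusted p = 0.00189). It was the 1 gene of 14 on the cartilage and bone list that passed.

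Binding proteins of insulin-like growth factors, a group formed after the values were seen, changed in 4 of 7 cases, against 5.85% of all genes. Igfbp5, a matrix-bound member, read 5.71, 7.39 and 7.15 at day 7 and 8.67, 10.24 and 8.83 at day 21 and rose by 2.80 ± 0.50, or 6.98-fold (adjusted p = 0.00324). Igfbp1 and Igfbp7 rose by 1.76 ± 0.43 and 0.90 ± 0.23 (adjusted p = 0.0225 and 0.0314), and Igfbp2, high in stem cells, fell by 0.93 ± 0.16 log2 (adjusted p = 0.00271). Igfbp1, chosen after its values were seen, lost the call without day 7 replicates 2 or 3 or day 21 replicate 2 (adjusted p = 0.0773 to 0.126, the difference being 0.88 log2 without day 21 replicate 2), and Igfbp7 lost it without day 7 replicates 2 or 3 or day 21 replicates 1, 2 or 3 (adjusted p = 0.0529 to 0.14). The growth factor genes Igf1 and Igf2 and the receptor genes Igf1r, Igf2r and Insr did not pass (-0.10, 0.06, 0.41, 0.46 and 0.48 log2).

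Single genes stood out from several further lists. Epas1, the oxygen-regulated factor HIF-2 alpha, read 7.57, 9.55 and 9.36 at day 7 and 9.14, 10.42 and 9.22 at day 21 and rose by 1.36 ± 0.17 (adjusted p = 0.000196), while the glucose transporter gene Slc2a3 fell by 0.90 ± 0.17 log2 (adjusted p = 0.00509) and the other 11 hypoxia and glycolysis genes did not pass. Of 13 selenoprotein genes, Gpx1, a peroxidase, fell by 0.86 ± 0.12 log2 (adjusted p = 0.0005). Gpx4 (-0.35 ± 0.10) lost its call without day 7 replicates 2 or 3 or day 21 replicates 1, 2 or 3 (adjusted p = 0.0576 to 0.181), and Gpx3 (0.58 ± 0.15) lost it without any 1 of the 6 arrays (adjusted p = 0.0555 to 0.213). Of 10 genes of iron handling, ferritin heavy chain (Fth1) rose by 0.57 ± 0.15 and the iron regulator gene Ireb2 changed by -0.56 ± 0.16. Fth1 lost the call without day 7 replicates 1 or 3 or day 21 replicates 1, 2 or 3 (adjusted p = 0.0612 to 0.216, the difference being 0.31 log2 without day 7 replicate 1) and Ireb2 without day 7 replicates 1, 2 or 3 or day 21 replicates 1 or 3 (adjusted p = 0.0781 to 0.162). Of 14 Notch pathway genes, Hes1 (0.82 ± 0.21) and Jag1 (0.79 ± 0.17) rose, with adjusted p = 0.0315 and 0.0131. Hes1 lost the call without day 7 replicates 2 or 3 or day 21 replicates 1 or 2 (adjusted p = 0.0534 to 0.221) and Jag1 without day 7 replicates 2 or 3 or day 21 replicate 2 (adjusted p = 0.0612 to 0.0713). Elovl6, a fatty acid elongase, fell by 0.97 ± 0.21 log2, and the sterol sensor gene Insig1 rose by 0.81 ± 0.19 (adjusted p = 0.0128 and 0.0179), the latter losing its call without day 7 replicates 1 or 3 or day 21 replicate 3 (adjusted p = 0.0569 to 0.0734).

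Single genes of the neural lists passed, where 1.37% of all genes rose and 4.48% fell. Of 20 neural progenitor genes 1 rose, the forebrain factor gene Six3 (0.47 ± 0.13, adjusted p = 0.0438), which lost its call without day 7 replicates 1, 2 or 3 or day 21 replicates 2 or 3 (adjusted p = 0.0854 to 0.257). Of 23 neuron genes 1 fell, the growth cone gene Stmn2 (-0.78 ± 0.17, adjusted p = 0.0115), which lost its call without day 7 replicates 2 or 3 or day 21 replicate 2 (adjusted p = 0.0537 to 0.0973, the difference being -0.51 log2 without day 21 replicate 2). Of 13 neural crest genes Erbb3 fell by 0.86 ± 0.20 log2 (adjusted p = 0.0166) and lost its call without day 7 replicates 2 or 3 or day 21 replicate 2 (adjusted p = 0.0708 to 0.121), and 0 of 12 glial genes passed. Lists of primitive streak, kidney, trophoblast and Wnt pathway genes also had 0 passing members, of 15, 11, 9 and 19 measured, with medians between -0.07 and 0.09 log2. A list of which 0 genes passed is not shown to be unchanged.

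**Figure D4:**
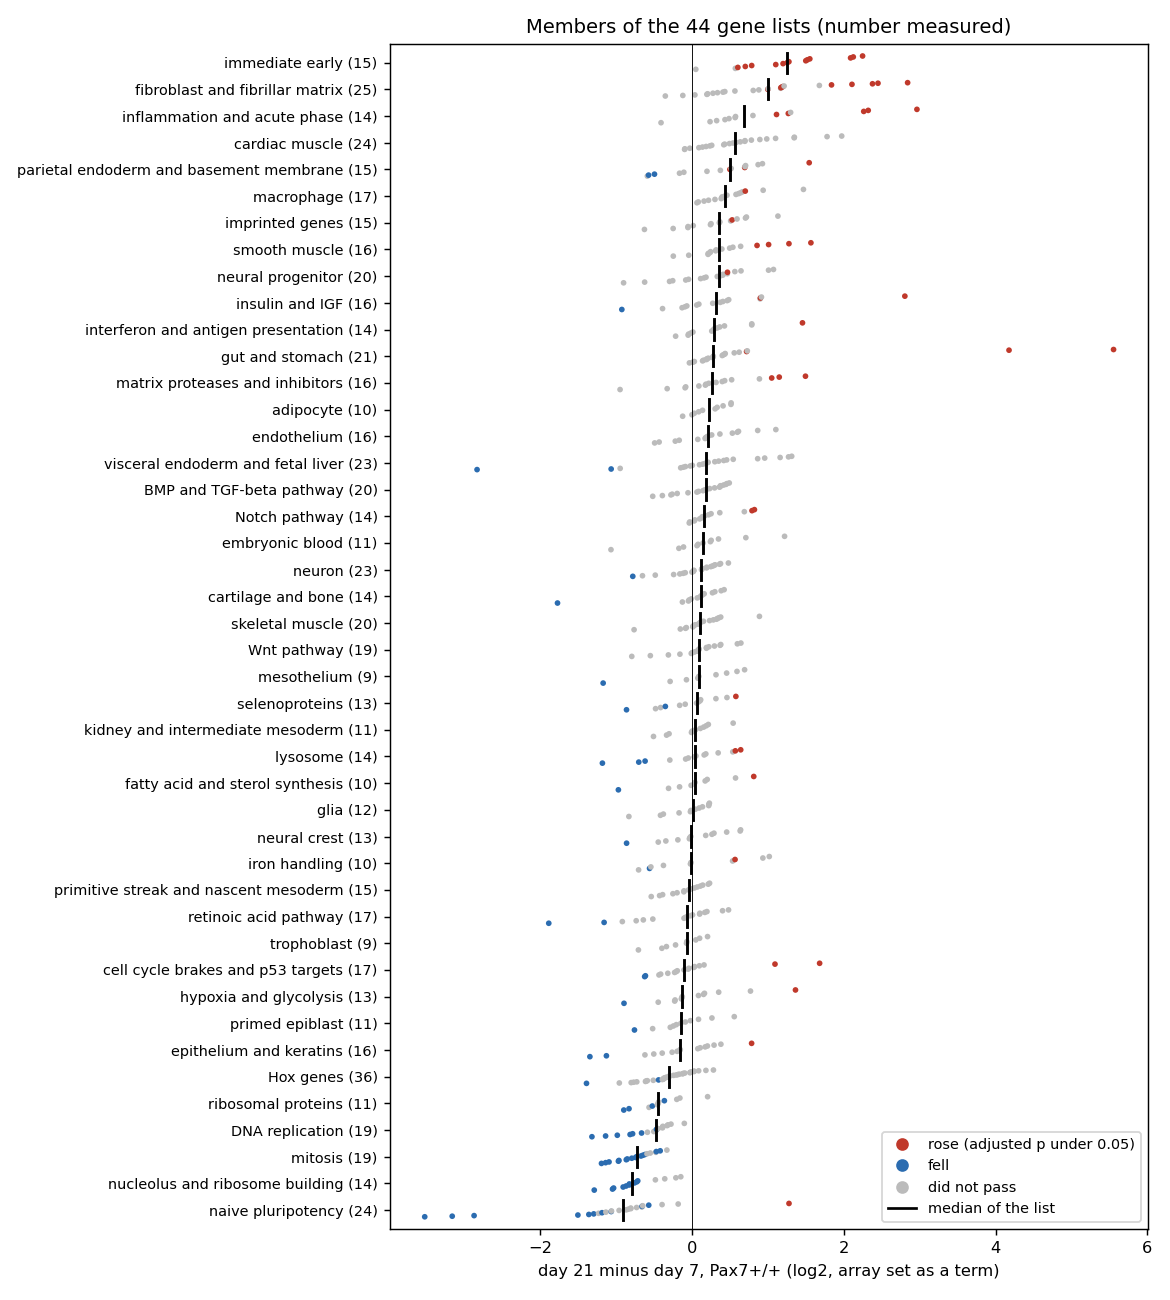
Each row is 1 of 44 gene lists, with its number of measured genes, sorted by median; each point is a gene's fitted day 21 minus day 7 difference (x axis, log2) in Pax7+/+ cells. Red points rose, blue points fell, grey points did not pass, and the black bar is the median, which runs from -0.92 for naive pluripotency to 1.25 for immediate early genes.

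The same step in Pax7-/- cells gave fewer calls. There 101 genes rose and 84 fell, 185 or 0.834% of those tested (0.455% and 0.379%). The Pax7-/- arrays also differ in their sets, since day 7 held 2 narrow arrays and 1 wide and day 21 held 1 narrow and 2 wide. A direct test of the difference between the genotypes passed for 202 genes (0.911% of all), of which 42 had a higher and 160 a lower step in Pax7+/+ cells. Without day 7 replicate 1, 2 or 3 of Pax7+/+ that count was 129, 68 and 73, without day 21 replicate 2 it was 307, and without day 21 replicate 3 it was 96. Without the array set term it was 0. Of the 304 Pax7+/+ rises 223, or 73.4%, had the same sign in Pax7-/- cells, of the 993 falls 741, or 74.6%, and of all genes 58.4%. The stomach genes rose in both: Gkn2 read 6.05, 7.31 and 5.97 at day 7 and 10.27, 10.996 and 11.45 at day 21 in Pax7-/- cells and rose by 4.42 ± 0.41, and the difference between the genotypes of 1.13 ± 0.59 did not pass (adjusted p = 0.558). Thbs1 rose by 2.37 ± 0.18 there and Cubn fell by 2.87 ± 0.43 log2, and the differences between genotypes were 0.01 ± 0.26 and 0.04 ± 0.63 (adjusted p = 0.997 and 0.996).

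Pluripotency and cell division genes were among those with a lower step in Pax7+/+ cells. Nanog read 6.67, 9.04 and 7.72 at day 7 and 5.86, 7.97 and 8.03 at day 21 in Pax7-/- cells, where the step was -0.91 ± 0.33, and the difference, Pax7+/+ minus Pax7-/-, was -2.62 ± 0.48 (adjusted p = 0.0192). This call was lost without day 7 replicate 1 (adjusted p = 0.0514). In the outgrowths both wide Pax7-/- arrays were therefore higher than the wide Pax7+/+ array, at 5.71. Sox2 and Tet1 differed in the same direction, by -1.69 ± 0.30 and -1.36 ± 0.22 log2 (adjusted p = 0.0156 and 0.01). Of 19 DNA replication genes 6 had a lower step in Pax7+/+ cells, of 19 mitosis genes 5 and of 14 nucleolar genes 3, against 0.721% of all genes. Mcm5 changed by 0.24 ± 0.18 in Pax7-/- cells and Rrm2 by 0.46 ± 0.14, and the differences were -1.56 ± 0.26 and -1.60 ± 0.20 log2 (adjusted p = 0.01 and 0.00391). Of the 5 fatty acid and sterol genes that differed, Scd1, a desaturase, rose by 2.19 ± 0.28 in Pax7-/- cells and differed by 0.04 ± 0.28 in Pax7+/+ cells (adjusted p for the difference = 0.0207). That call was lost without day 7 replicate 2 (adjusted p = 0.0602).

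A higher step in Pax7+/+ cells was found for 0.189% of all genes, for 3 of 15 parietal endoderm and basement membrane genes, for 2 of 15 immediate early genes and for 1 each of 25 fibroblast and matrix genes and of 16 matrix proteases and inhibitors. The 3 were Lama1, Lamb1 and Nid2, at 1.30 ± 0.29, 1.502 ± 0.32 and 0.77 ± 0.17 (adjusted p = 0.0479, 0.04 and 0.0479), named after their values were seen. With 1 of the 6 arrays left out, Lama1 and Lamb1 kept this call only without day 21 replicate 2 (otherwise adjusted p = 0.0551 to 0.121 and 0.0524 to 0.0944), and Nid2 lost it in all 6 fits (adjusted p = 0.0762 to 0.12). Their steps in Pax7+/+ cells were 0.51 ± 0.20, 0.70 ± 0.22 and -0.50 ± 0.12, of which that of Nid2 passed as a fall, and in Pax7-/- cells -0.78 ± 0.20, -0.81 ± 0.22 and -1.26 ± 0.12. Ccn1, Ccn2 and Dcn had steps of -0.04 ± 0.20, 0.06 ± 0.12 and 0.57 ± 0.31 in Pax7-/- cells, none of which passed, and the genotypes differed by 1.93 ± 0.29, 1.58 ± 0.17 and 2.27 ± 0.44 (adjusted p = 0.00592, 0.0011 and 0.025). Atf3 and Egr1 differed by 1.40 ± 0.20 and 1.06 ± 0.19 (adjusted p = 0.00543 and 0.0152), Egr1 rising in both genotypes. The call was lost for Dcn without day 7 replicates 2 or 3 or day 21 replicates 2 or 3 (adjusted p = 0.0529 to 0.0671) and for Egr1 without day 7 replicate 1 (adjusted p = 0.0506). Epas1 and the prostaglandin transporter gene Slco2a1 differed by 1.79 ± 0.24 and 1.76 ± 0.23 (adjusted p = 0.00391 and 0.00391). F3, the tissue factor that starts coagulation, fell by 1.29 ± 0.23 log2 in Pax7-/- cells and did not pass in Pax7+/+ cells (0.71 ± 0.23, adjusted p = 0.0948), with a difference of 2.00 ± 0.34 (adjusted p = 0.0118). Zscan4e read 4.98, 8.44 and 5.53 at day 7 and 4.72, 4.43 and 4.36 at day 21 in Pax7-/- cells, a step of -2.29 ± 0.67 that did not pass (adjusted p = 0.148). The difference between the genotypes was -2.33 ± 0.97 (adjusted p = 0.392).

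**Figure D5:**
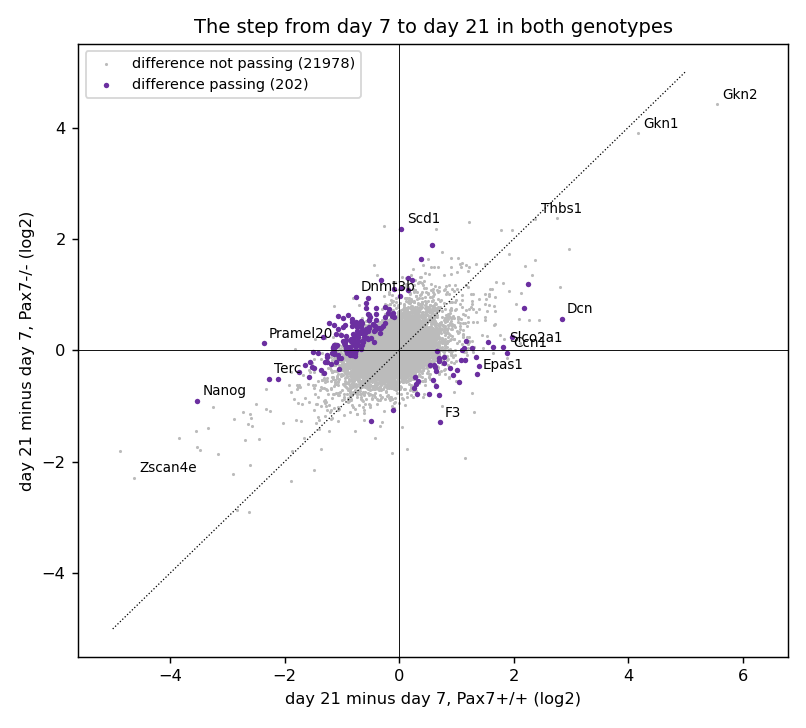
Fitted day 21 minus day 7 difference of each gene in Pax7+/+ (x axis, log2) and Pax7-/- cells (y axis, log2), with the 202 genes that differed between genotypes in purple, all others in grey and the dotted line at equal differences. Gkn1 and Thbs1 lie near the line, Nanog and Scd1 lie above it, and Dcn, Ccn1 and F3 lie below it.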

How the data were processed

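Total RNA was hybridised to Affymetrix arrays. The authors deposited 1 log2 intensity for each probe set and array, and their tools named in the submitters' processing notes are RMA and Partek, with no version or order, and whether the narrow and wide arrays were summarised together is not given in the sources used here. Per the deposited table and its probe annotation, 23521 of 41345 probe sets carry 1 gene symbol, 1814 several and 16010 none. Each of 22180 genes was represented by the probe set of highest mean (1082 genes had several), and 21994 genes matched the reference annotation (GRCm38.p6) by gene identifier, which gave chromosomes and biotypes. No filter on low values was set.

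An array was called wide where its standard deviation over probe sets exceeded 1.6. limma 3.58.1 in R 4.3.3 was fitted to all 18 arrays, with 6 group means and the array set (lmFit, contrasts.fit and eBayes without trend, 11 residual degrees of freedom), and p-values were adjusted over 22180 genes. The fits were run on simulated data with independent noise and a fixed array set shift for each gene. Noise or day differences of unequal size between the array sets were not simulated. Folds are 2 to the power of the fitted log2 difference. With 3 arrays a day, precision is limited by the number of arrays.

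Named genes are, per direction, the 15 largest changes that passed, were at least 2-fold and did not overlap within either set; up to 4 passing genes per list, or the 2 with the smallest p; and up to 5 per direction for the genotype difference; genes named beyond that were chosen after their values were seen. The members and all 44 lists (710 genes measured of 771) were chosen with earlier results of these data known. Alternatives covered the array set, normalization, filters, probe set choice, moderation, weights, the replicate block, the threshold and leaving out each of the 6 arrays.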

Additional observations from a re-analysis of the deposited data

Results flagged for a closer look

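For the named genes below, the step from day 7 to day 21 differed between the genotypes by the interaction term of limma (adjusted p under 0.05 over all genes); the values are the Pax7+/+ step minus the Pax7-/- step, in log2. The step was higher in Pax7+/+ cells for Dcn (2.27), F3 (2.00), Ccn1 (1.93), Epas1 (1.79), Slco2a1 (1.76), Ccn2 (1.58), Emp2 (1.42), Atf3 (1.40), Plaur (1.32), Klf4 (1.24), Btg1 (1.09) and Egr1 (1.06).

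It was lower in Pax7+/+ cells for the pluripotency and methylation genes Nanog (-2.62), Sox2 (-1.69), Dnmt3b (-1.72) and Tet1 (-1.36), for Pramel20 (-2.49) and for Terc (-1.77). The replication and mitosis genes Rrm2 (-1.60), Mcm5 (-1.56), Mcm7 (-1.41), Plk1 (-1.39), Mcm4 (-1.25), Mad2l1 (-1.20) and Pcna (-1.19) were lower as well, with the histone gene H1f5 (-1.34) and the ribosome genes Nop2 (-1.08) and Rpl10a (-0.86). The lipid genes Scd1 (-2.15) and Elovl6 (-1.55) and the binding protein gene Igfbp2 (-1.19) complete the set.

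Dnmt3b moved in opposite directions, with -0.76 ± 0.20 in Pax7+/+ and 0.96 ± 0.20 in Pax7-/- cells (adjusted p = 0.0363 and 0.0341). Of these 31 differences 14 kept their call in each of the 6 fits with 1 array left out. Dcn, Elovl6 and Terc kept the call in 2 of the 6 fits, Igfbp2 in 3, and Klf4, Mad2l1 and Pcna in 4. Egr1, H1f5, Mcm7, Nanog and Scd1 kept the call in 5. Emp2 lost it without any 1 of the 6 arrays (adjusted p = 0.0587 to 0.14), and Mcm4, Plk1, Pramel20 and Rpl10a kept it in 1 of the 6 fits, Mcm4 losing it without day 7 replicates 1, 2 or 3 or day 21 replicates 1 or 3 (adjusted p = 0.0734 to 0.0975), Plk1 without day 7 replicates 1, 2 or 3 or day 21 replicates 1 or 3 (adjusted p = 0.0777 to 0.137), Pramel20 without day 7 replicates 2 or 3 or day 21 replicates 1, 2 or 3 (adjusted p = 0.0706 to 0.105) and Rpl10a without day 7 replicates 1, 2 or 3 or day 21 replicates 1 or 3 (adjusted p = 0.0745 to 0.111).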

How the results depend on the processing

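Without the array set term, 2 genes rose and 3 fell in Pax7+/+ cells (2 and 3 at 2-fold), 3 changed in Pax7-/- cells, the genotype difference passed for 0 and the step from day 0 to day 7 for 15. Narrow arrays alone gave 110 rises and 386 falls, 90 genes in Pax7-/- cells and 489 from day 0 to day 7; wide arrays alone gave 1310 and 1851 (476 and 592 at 2-fold), 815, 3026 and 337 genotype differences. Array weights gave 770 genes in Pax7-/- cells, and the 6 Pax7+/+ arrays alone gave 471 falls. At adjusted p under 0.01 there were 109 rises (62 at 2-fold) and 438 falls, 50 genes in Pax7-/- cells, 34 genotype differences and 564 genes from day 0 to day 7. Deviations of same-numbered arrays correlated at -0.04, 0.00 and 0.11. These values were not set against those of differently numbered arrays, so they cannot decide whether the numbers pair the samples. With the replicate number as a block 105 genes passed in Pax7-/- cells and 73 genotype differences, with 206 rises and 794 falls.

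Leaving out 1 of the 6 arrays gave 129 to 326 rises and 534 to 876 falls (57 to 137 and 152 to 265 at 2-fold), 140 to 313 genes in Pax7-/- cells, 68 to 307 genotype differences and 640 to 1585 genes from day 0 to day 7. All 7 counts stayed within 1.5 times their value under scaling to the narrow spread, quantile normalization within a set, median centring, both filters, both other probe set choices and eBayes with trend. Of 123 named genes that had passed, 2 kept the call without the set term, 79 with the 6 arrays alone, and 78 to 108 with 1 array left out.

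On narrow arrays alone Cdx1 (0.067), Cd36 (-0.046), Stra8 (0.051), Pou5f1 (0.024), Zscan4a (0.32) and Pax7 (-0.46) changed sign. Without the set term Sgce (-0.030) and Id2 (-0.21) did, as did the genotype differences of Plaur (-0.22) and Klf4 (-0.050), with the probe set of highest spread Npm1 did (0.014), and with scaling to the narrow spread Pax7 did (-0.013). With 1 array left out, Pax7 ran from -0.28 to 0.29 and Zscan4a from -0.76 to 0.072. The cause was not tested. For arrays, signal near the array median limits what can be said of low genes.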
